A study of Mus musculus with 2 samples.

Results

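The vomeronasal and taste receptor genes were taken as the genes whose platform symbol starts with Vmn1r, Vmn2r, V1r, V2r, Tas1r or Tas2r. The rule found 150 genes on 154 spots, out of 19087 named genes and 30110 entries in all (an entry is a named gene or a single probe without a name). There were 110 Vmn1r genes, V1rd19 among them, 24 Vmn2r genes, 3 Tas1r genes and 13 Tas2r genes. The rule used names alone and no measured value. These families are known for their expression in sensory cells, and how their ratios spread on arrays of stem cell RNA is described here.

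RNA of mouse embryonic stem cells was compared on 2 Agilent arrays, each with a Tcl1 stable transformant in 1 dye and a Tcl1 gene disruptant in the other. On array 1, transformant clone 1 was in Cy5 and disruptant clone 4 in Cy3. Array 2 had the opposite dyes. Its Cy3 channel held transformant clone 4 and its Cy5 channel disruptant clone 6, which was also stably transfected with CAG-EGFP. All cells carried a PGK-puro cassette in place of parts of exons 2 and 3 on both alleles of Tcl1, and the transformants carried in addition a CAG-Tcl1ireszeopA vector put into disruptant clone 4. The transformants therefore descend from 1 disruptant clone, and a CAG-EGFP control vector is stated for the disruptant of array 2 only. Culture was feeder-free, on gelatin and with LIF. Each pair of values in the text is the log2 ratio of transformant to disruptant on array 1 and on array 2, and the error of a mean is the SD of these 2 values (n = 2).

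The deposited number per spot was read as a log10 ratio of Cy5 over Cy3, the convention of the Agilent program that the labels name. Scale and direction are therefore inferred, and how the values were centred is unknown. The median over all entries was 0 on both arrays. A ratio gives no level, so neither the absence of receptor RNA nor the identity of the cells from their markers could be checked here. In bulk RNA, fewer cells of a type and less RNA per cell cannot be told apart.

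Vmn1r and Vmn2r genes encode pheromone receptors of the vomeronasal organ, a sense organ at the base of the nasal septum. V1R receptors sit on neurons of the apical layer and signal through the G protein subunit Gnai2, while V2R receptors, which have a large outer domain, sit on neurons of the basal layer with Gnao1. Tas1r genes encode the subunits of the sweet and umami receptors and Tas2r genes the bitter receptors of taste cells. All are G protein-coupled receptors, and most lie in tandem clusters of closely similar copies, so a probe may also bind a relative and the separate values of single receptors are uncertain.

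The sequence at the start of these genes, which the rule did not use, held few CG dinucleotides. Windows of 300 bases from RefSeq (GRCm38.p6), 250 before to 50 after the start of the gene model, were found for 133 of the 150 genes, on 134 windows. The median number of CG dinucleotides was 1, against 7 over all 32851 windows, 1 for olfactory receptor genes and 21 for ribosomal protein genes. No CG at all was present in 42 windows (31.3%), against 5.43% of all windows, and 1 window (0.746%) held 10 or more, against 43.5%. The median G+C content was 36.3%, against 52.7% over all windows. The letters TATAAA, searched on both strands, were present in 35.1% of the receptor windows and 13.6% of all windows. In 99 of the 134 windows (73.9%) the gene model opened with ATG, against 5.83% of all windows. Olfactory receptor windows were alike in these measures, with no CG in 33.2%, a median G+C of 35.0%, TATAAA in 41.5% and ATG in 71.6%. The 3 Tas1r windows differed from the other receptor windows, with a median of 5 CG, a G+C content of 56.3% and 0 with TATAAA or ATG. For genes whose model opens with ATG the window lies next to the coding start and may not be the site where transcription begins. The 5 windows printed here are those of the receptor gene with the lowest mean (Vmn1r69), the one with the highest (Vmn1r35), the one lowest on array 1 (Vmn2r71), the shared sweet and umami subunit (Tas1r3) and, for contrast, a ribosomal protein gene (Rpl4). Capitals mark CG.
Vmn1r69: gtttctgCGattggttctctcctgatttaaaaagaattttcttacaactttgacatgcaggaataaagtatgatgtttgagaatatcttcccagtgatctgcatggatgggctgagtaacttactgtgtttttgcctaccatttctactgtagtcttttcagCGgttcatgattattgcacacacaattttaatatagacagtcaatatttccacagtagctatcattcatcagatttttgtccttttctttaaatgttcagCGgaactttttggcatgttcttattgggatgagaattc
Vmn1r35: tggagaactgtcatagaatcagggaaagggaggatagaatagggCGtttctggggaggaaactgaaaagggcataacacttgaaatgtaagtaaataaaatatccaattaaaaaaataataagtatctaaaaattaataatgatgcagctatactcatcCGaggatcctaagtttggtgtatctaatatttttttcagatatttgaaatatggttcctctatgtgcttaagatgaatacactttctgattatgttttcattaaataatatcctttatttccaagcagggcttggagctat
Vmn2r71: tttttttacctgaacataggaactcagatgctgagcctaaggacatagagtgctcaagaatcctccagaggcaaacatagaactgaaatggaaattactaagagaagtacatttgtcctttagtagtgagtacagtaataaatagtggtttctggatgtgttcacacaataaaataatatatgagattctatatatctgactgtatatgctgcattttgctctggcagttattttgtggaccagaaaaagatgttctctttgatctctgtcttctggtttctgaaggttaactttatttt
Tas1r3: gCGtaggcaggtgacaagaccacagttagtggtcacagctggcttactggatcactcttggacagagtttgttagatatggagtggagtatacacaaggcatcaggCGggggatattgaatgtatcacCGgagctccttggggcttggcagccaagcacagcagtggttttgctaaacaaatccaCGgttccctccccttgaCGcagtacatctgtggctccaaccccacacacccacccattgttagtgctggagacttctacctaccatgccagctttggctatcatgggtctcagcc
Rpl4: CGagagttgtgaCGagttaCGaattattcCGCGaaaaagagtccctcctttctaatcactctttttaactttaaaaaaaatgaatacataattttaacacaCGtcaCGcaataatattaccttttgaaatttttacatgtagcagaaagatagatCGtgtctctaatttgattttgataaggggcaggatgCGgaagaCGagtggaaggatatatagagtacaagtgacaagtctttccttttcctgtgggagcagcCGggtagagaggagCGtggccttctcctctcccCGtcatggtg
The window of Vmn1r69 was chr7:10581438-10581737 on the minus strand, with 3 CG. The window of Vmn1r35 was chr6:66679635-66679934 on the minus strand, with 2 CG. The window of Vmn2r71 was chr7:85615212-85615511 on the plus strand, with 0 CG. The window of Tas1r3 was chr4:155863304-155863603 on the minus strand, with 5 CG. The window of Rpl4 was chr9:64173137-64173436 on the plus strand, with 13 CG. It is not typical of the ribosomal protein windows. Its G+C content of 40.7% and its CG count lay below their medians of 57.3% and 21. In RefSeq symbols, all 150 genes matched by gene number, 148 of them as protein coding and 2 as pseudogenes.

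The receptor genes lay close to 0 on both arrays. On array 1 their values had a median of 0.00, an SD over genes of 0.290 and a range of -1.36 to 0.87. On array 2 the median was 0.05, the SD 0.229 and the range -0.69 to 1.01. Over all entries the SD was 0.464 and 0.498. A value within 0.25 of 0 was found for 123 of the 150 genes (82.0%) on array 1 and 112 (74.7%) on array 2, against 58.9% and 52.7% of all entries. These are descriptions over genes of the same 2 hybridisations, and no test of the difference in spread was made.

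**Figure D1:**
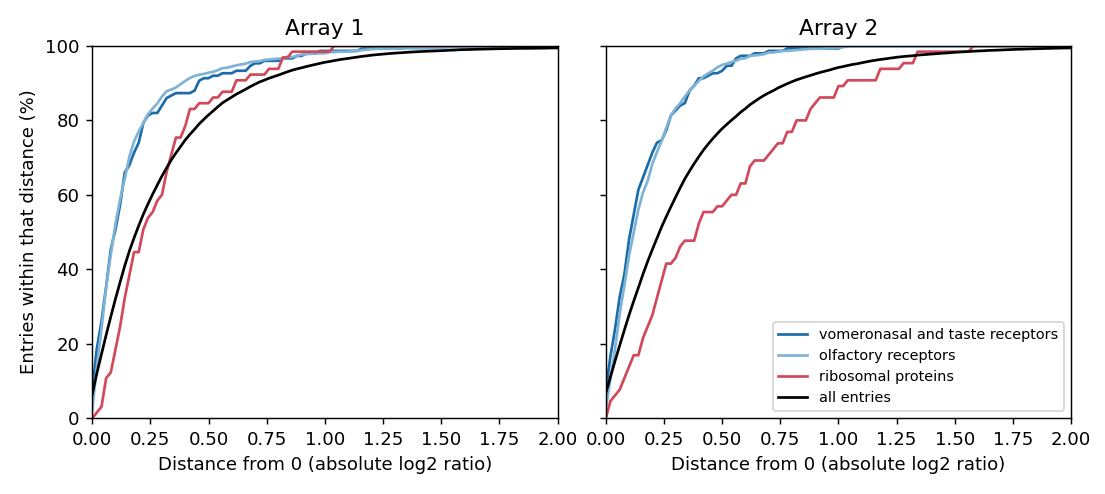
Share of entries (%) whose log2 ratio lies within a given distance of 0 (absolute log2 units), for array 1 and array 2. The curve of the 150 vomeronasal and taste receptor genes runs beside that of 905 olfactory receptor genes and above that of all 30110 entries, while 65 ribosomal protein genes lie below it on array 2.

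No receptor gene passed the test over all entries. limma called 0 of the 150 genes at an adjusted p of 0.05, as it called 0 of all 30110 entries (0%), and also 0 with a robust variance model. The smallest unadjusted limma p of any entry was 0.0025, with 1 residual degree of freedom. With 2 arrays the test could hardly call any entry, so its 0 does not show that receptor genes were unchanged. At an unadjusted limma p under 0.05 there was 1 receptor gene lower in the transformants, against 1.68% of all entries, and 1 higher, against 1.46%. A difference of at least 2-fold on both arrays was seen for 0 receptor genes downwards (0.193% of all entries), 0 upwards (0.0166%) and 0 in opposite directions (0.664%). On array 1 by itself, 2 receptor genes reached 2-fold (1.33%, against 4.39% of all entries), and on array 2 there was 1 (0.667%, against 5.78%). At 1.5-fold there were 11 on array 1 (7.33%, against 14.3%) and 4 on array 2 (2.67%, against 17.5%).

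Vmn1r69 had the lowest mean of the receptor genes and lay below 0 on both arrays. It was measured by 1 probe, with -1.16 and -0.69. The mean was -0.92 ± 0.33 (SD, n = 2), or 1.90-fold lower in the transformants, with a limma unadjusted p of 0.0437 and an adjusted p of 1. It was the 1 receptor gene at least 1.5-fold lower on both arrays, as were 0.95% of all entries. Its nearest measured relatives in the order of the chromosome did not share these values. Vmn1r67 and Vmn1r66 on one side gave 0.21 and 0.51, and -0.21 and 0.35. Vmn1r70 on the other side gave 0.28 and -0.27. Vmn1r71 was exactly 0 on both arrays, a value whose meaning is not known.

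Of the genes above 0 on both arrays, Vmn1r218 was highest by the smaller of its values. It gave 0.55 and 0.50, a mean of 0.53 ± 0.04 or 1.44-fold higher in the transformants (limma unadjusted p of 0.0233, adjusted p of 1). Its neighbours Vmn1r217 and Vmn1r219 were exactly 0 on both arrays. Vmn1r35 had the highest mean, with 0.87 and 0.31 (0.59 ± 0.40, adjusted p of 1), and its measured neighbours Vmn1r33 and Vmn1r37 gave -0.01 and -0.02, and 0.20 and 0.00. What an exact 0 stood for is not known, so Vmn1r217 and Vmn1r219 give no comparison for Vmn1r218. Of the neighbours named here with values other than 0, none repeated the values of Vmn1r69 or Vmn1r35 on both arrays.

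**Figure D2:**
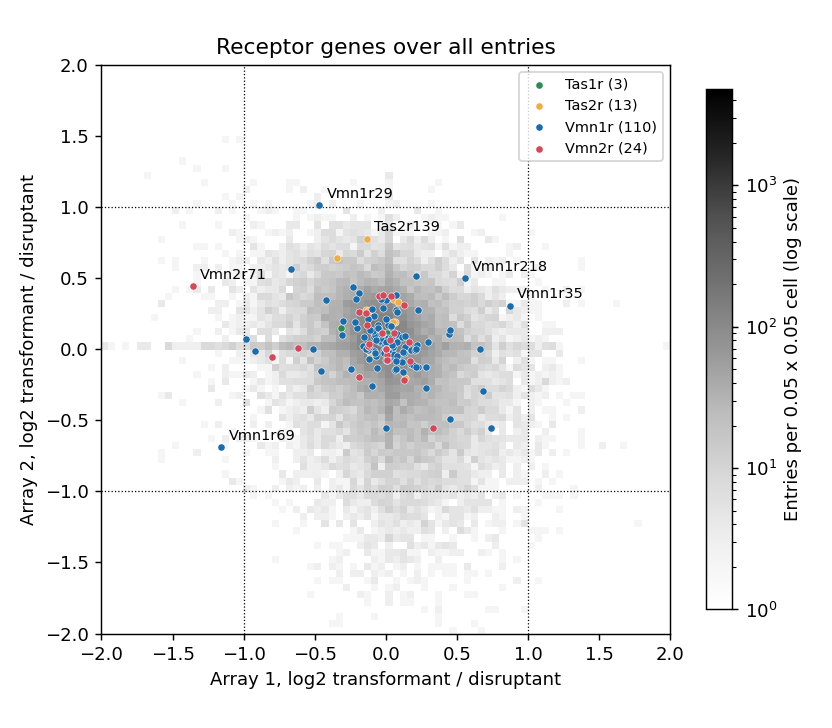
Log2 ratio of transformant over disruptant on array 1 (horizontal) and array 2 (vertical) for 150 receptor genes, coloured by family, over the density of all entries in grey (log colour scale, cells of 0.05 by 0.05, range cut at 2 on each side). Dotted lines mark 2-fold. No receptor gene lies past 2-fold on both arrays, and Vmn1r69 is nearest to that corner at the lower left.

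Apart from Vmn1r69, the genes with the largest values on a single array did not repeat them on the other. Vmn2r71 had the lowest value on array 1, -1.36, and 0.45 on array 2. Vmn1r29 had the highest value on array 2, 1.01, and -0.47 on array 1, while its neighbours Vmn1r28 and Vmn1r30 lay between -0.07 and 0.09 on both arrays. Vmn1r203 gave -0.98 and 0.07, just short of 2-fold on array 1. Tas2r139 gave -0.13 and 0.78 and was the next below 2-fold on array 2. Opposite values were also seen for Vmn1r16 (-0.66 and 0.56), Vmn1r49 (0.74 and -0.55) and Vmn1r206 (0.45 and -0.49). For each of these genes the SD between the arrays was larger than the size of the mean.

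The Vmn1r genes made up most of the set and gave its shape. Of 110 genes, 89 lay within 0.25 of 0 on array 1 and 86 on array 2, against 58.9% and 52.7% of all entries. The medians were 0.00 and 0.03 and the SDs over genes 0.289 and 0.222. After Vmn1r69 the lowest in the same direction on both arrays were Vmn1r237 (-0.46 and -0.15) and Vmn1r84 (-0.25 and -0.14), and after Vmn1r35 and Vmn1r218 the rule named Vmn1r189 (0.23 and 0.28). None of these was called. Vmn1r85 and Vmn1r89, known as receptors of sulfated steroids and chosen after their values were seen, gave -0.07 and 0.06, and -0.11 and 0.13. The same sign on both arrays was seen for 15 Vmn1r genes with negative and 24 with positive values. Mixed signs were seen for 60, and 11 held an exact 0. Over all entries 17.0% lay below 0 on both arrays, 21.0% above and 53.4% had mixed signs.

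The 24 Vmn2r genes had medians of -0.01 and 0.04 and SDs of 0.355 and 0.228. Vmn2r26 gave nearly the same value on both arrays, -0.19 and -0.20 (mean -0.20 ± 0.0040, 1.14-fold lower, limma unadjusted p of 0.122). Vmn2r84 gave -0.80 and -0.05, so that its low mean came from array 1. The highest on both arrays were Vmn2r43 (0.12 and 0.31), Vmn2r61 (0.05 and 0.11) and Vmn2r16 (0.16 and 0.05). Vmn2r1 and Vmn2r7 belong to a subfamily that is expressed together with other V2R receptors in the same neuron. They gave 0.33 and -0.55, and exactly 0 on both arrays, and were chosen after their values were seen. By sign, 2 Vmn2r genes lay below 0 on both arrays, 5 lay above and 15 were mixed, against 17.0%, 21.0% and 53.4% of all entries.

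**Figure D3:**
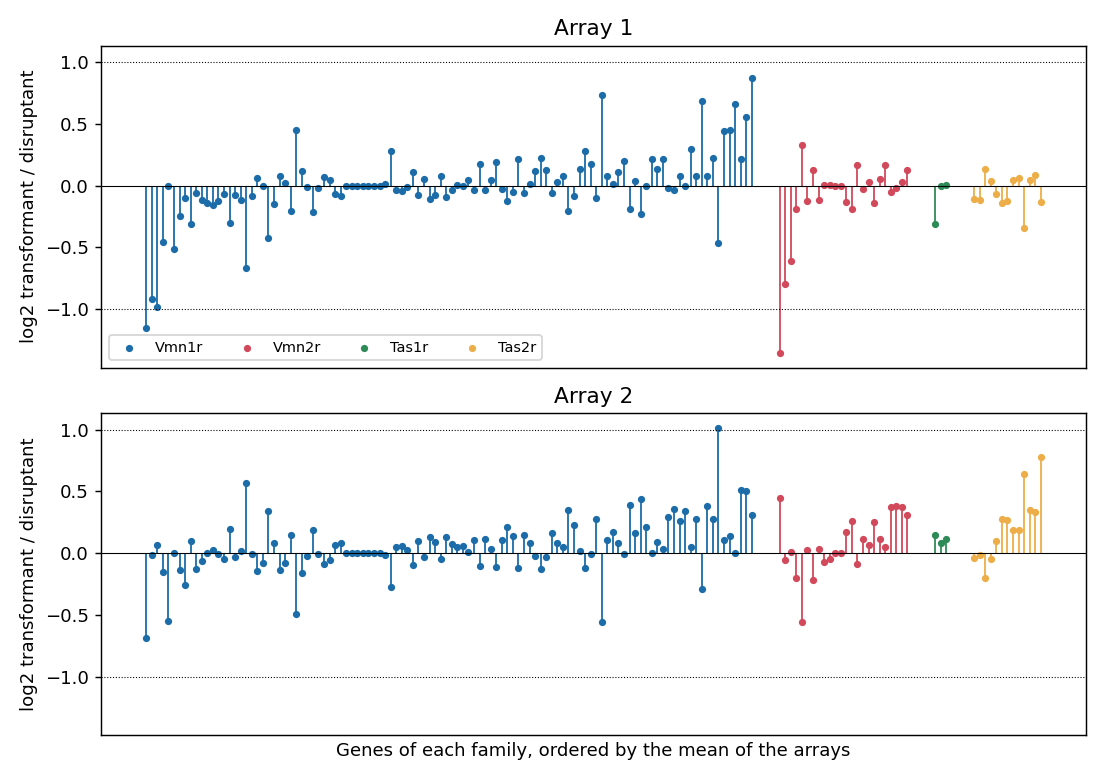
Log2 ratio of transformant over disruptant of each of the 150 receptor genes on array 1 (top) and array 2 (bottom), grouped by family and ordered within a family by the mean of the arrays. Dotted lines mark 2-fold. The genes with long bars on one array mostly have short or opposite bars on the other, and Vmn1r69 at the far left is low on both.

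The 3 Tas1r genes were not called by limma, and neither was any other entry. Tas1r1, the umami subunit, gave -0.31 and 0.15 (mean -0.08 ± 0.33). Tas1r2, the sweet subunit, gave 0.01 and 0.11 (0.06 ± 0.08), and Tas1r3, which pairs with either, gave 0.00 and 0.08 (0.04 ± 0.06). Their means correspond to 1.06-fold lower, 1.04-fold higher and 1.03-fold higher.

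The 13 Tas2r genes had a narrower spread than the Vmn1r and Vmn2r genes on array 1 (SD 0.131, range -0.34 to 0.14). On array 2 their SD was larger (0.276), but their range of -0.20 to 0.78 was not wider. That of Vmn1r was -0.69 to 1.01 and that of Vmn2r -0.55 to 0.45. Of the 13 Tas2r genes, 4 were above 0 on both arrays, 2 below and 7 mixed, against 21.0%, 17.0% and 53.4% of all entries. Above 0 on both arrays the rule named Tas2r119 (0.09 and 0.33), Tas2r105 (0.06 and 0.19), a receptor for cycloheximide, and Tas2r140 (0.05 and 0.19). Tas2r108, a receptor for denatonium that was chosen after its values were seen, gave 0.05 and 0.35. Below 0 on both were Tas2r110 (-0.11 and -0.04) and Tas2r130 (-0.12 and -0.01). Of the 13 genes, 12 lie on chromosome 6.

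By chromosome, the 55 receptor genes on chromosome 6 had medians of 0.00 and 0.02, the 41 on chromosome 7 had 0.00 and 0.10, the 25 on chromosome 13 had 0.00 and 0.03, and the 15 on chromosome 17 had -0.02 and 0.03. The other 14 genes lie on 6 chromosomes with 1 to 4 genes each. The SD over genes ran from 0.181 on chromosome 17 to 0.348 on chromosome 13 on array 1, and from 0.156 on chromosome 17 to 0.260 on chromosome 6 on array 2, among these 4 chromosomes. On neither array did a median of these 4 chromosomes lie as far as 0.1 from 0.

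More than 1 probe was present for 4 receptor genes, and in all 4 the probes differed in sign on at least 1 array. The probes of Vmn1r188 gave 0.84 and -0.30, and 0.05 and 0.51, which average to similar means of 0.27 and 0.28 over the arrays. Those of Vmn2r107, chosen after its values were seen, gave 0.40 and -0.32, and -0.07 and 0.15. Those of Vmn2r89 gave 0.20 and 0.47, and -0.14 and 0.28. Those of Vmn1r58 stayed nearer 0, with 0.00 and -0.15, and 0.15 and -0.13.

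A ratio of exactly 0 was deposited for 11 of the 154 receptor spots (7.14%) on array 1 and 11 on array 2, and for 9 on both (5.84%). Over all 43065 spots used the shares were 6.58%, 7.11% and 4.69%, and over the 32042 spots with 1 symbol 4.09%, 4.69% and 2.84%. The share of receptor spots was thus near that of all spots and above that of the spots with a symbol, which all receptor spots have. The 9 genes at 0 on both arrays were Vmn1r15, Vmn1r17, Vmn1r183, Vmn1r217, Vmn1r219, Vmn1r32, Vmn1r71, Vmn2r10 and Vmn2r7. Vmn1r210 and Vmn1r9 were at 0 on array 1 only, with 0.34 and -0.55 on array 2, and Vmn1r214 and Vmn1r220 on array 2 only, with 0.66 and -0.51 on array 1. No taste receptor spot of 16 was at 0, but 16 spots are too few for a 0 to be read against these shares. Olfactory receptors had fewer zeros, with 23 of 976 spots (2.36%) on array 1 and 25 (2.56%) on array 2, and ribosomal protein genes had 0 of 117. The sources used here do not give what an exact 0 stood for.

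**Figure D4:**
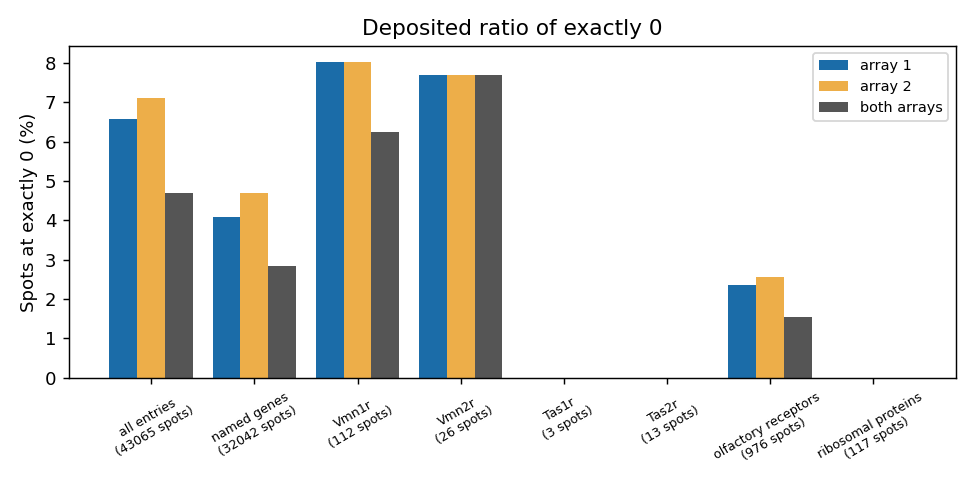
Share of spots (%) with a deposited ratio of exactly 0 on array 1, on array 2 and on both, for all spots used, spots with 1 symbol, each receptor family, olfactory receptors and ribosomal protein genes, with the number of spots under each name. Vmn1r and Vmn2r spots reach 8.04% and 7.69% on each array, and Tas1r, Tas2r and ribosomal protein spots have none. The Tas1r and Tas2r spots are too few for this to be read against the other shares.

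A receptor gene with a higher value on array 1 tended weakly to a lower one on array 2. The Pearson correlation over the 150 genes was -0.18 and the Spearman correlation -0.26, against -0.19 and -0.21 over all entries and -0.22 and -0.21 over 905 olfactory receptors. Over the 19087 named genes the correlations were -0.14 and -0.18. These are correlations across genes that share both hybridisations and their dyes. Below 0 on both arrays were 19 receptor genes (12.7%, against 17.0% of all entries), and above 0 on both 34 (22.7%, against 21.0%). Opposite signs were seen for 84 (56.0%, against 53.4%). In 54 of these 84 genes Cy3 was the brighter dye on both arrays and in 30 it was Cy5. For olfactory receptors the counts were 375 and 145, for ribosomal protein genes 9 and 29, and for all entries 8207 and 7883. The SD over receptor genes of the mean of the arrays was 0.168. That of the difference of the arrays divided by 2 was 0.200. Their ratio of 1.20 lay near the 1.21 of all entries and above the 1.15 of named genes. The receptor genes thus had smaller values than all entries in both parts, in nearly the same proportion.

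The other entries were also set beside the range of the receptor genes. That range is not a measured range of noise, since the absence of receptor RNA could not be checked here. The mean of the arrays fell below that of Vmn1r69 for 370 of the other 29960 entries (1.24%) and rose above that of Vmn1r35 for 460 (1.54%). Olfactory receptors were among both, with means of -1.06 (Olfr560) and -0.94 (Olfr420), and of 0.75 (Olfr761) and 0.72 (Olfr881). The range is therefore no limit for sensory receptor genes. On array 1, 510 entries (1.70%) lay further from 0 than any receptor gene, and on array 2 there were 1682 (5.61%).

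Named genes outside both receptor families were also set in order of the CG count at their start. With fewer than 2 CG (784 genes) the SD over genes was 0.480 on array 1 and 0.403 on array 2. With 20 or more (5993 genes) it was 0.411 and 0.548, and the share at least 2-fold from 0 on array 2 was 8.79%, against 2.93% in the class with fewest. On array 1 that share went the other way, with 2.80% against 4.08%. The median absolute value was larger in the CG-richest than in the CG-poorest class on both arrays, with 0.217 against 0.172 on array 1 and 0.296 against 0.170 on array 2. The SD was larger in the CG-richest class on array 2 and smaller on array 1. The receptor genes, with 0.290 and 0.229, lay below all 5 classes on both arrays.

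**Figure D5:**
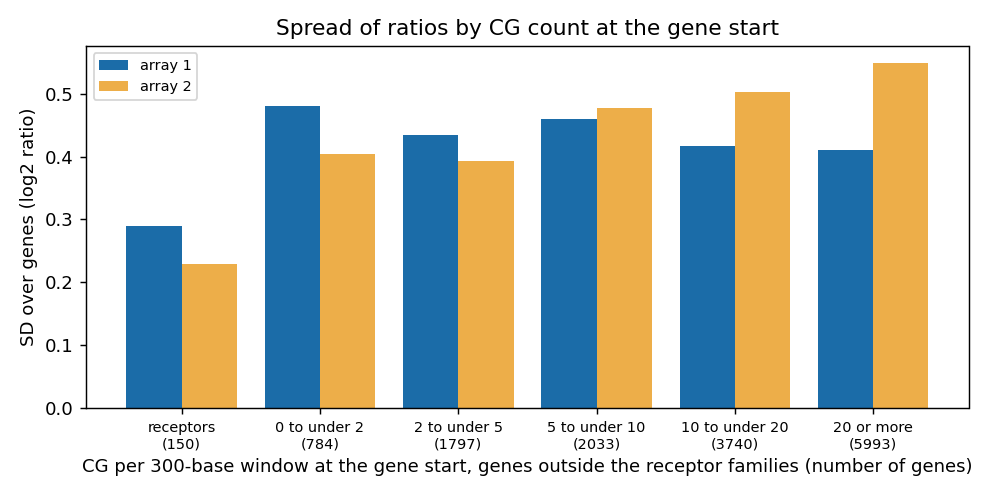
SD over genes of the log2 ratio on array 1 and array 2 for the 150 receptor genes (left) and for named genes outside the vomeronasal, taste and olfactory receptor families in 5 classes by the number of CG in the 300-base window at the gene start, with the number of genes in brackets. The receptor bars, 0.290 and 0.229, are shorter than those of each class.

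Lists of sensory signalling genes, of co-receptors and other sensory receptors, and of pheromone ligands and carriers gave no call either (0 by limma in each of 4 lists). Before adjustment, the limma p of 0 genes in each list fell under 0.05. The shares of all entries that did so were 1.68% lower and 1.46% higher. Lists of 8 to 18 genes are too short for a 0 to be read against such shares. For the counts by sign that follow, 17.0% of all entries lay below 0 on both arrays and 21.0% above. Of 14 genes of vomeronasal signalling, 13 were measured, with medians of 0.17 and 0.03, 3 below and 5 above 0 on both arrays. Omp, a marker of mature sensory neurons, gave 0.14 and 0.11, Gnai2 0.28 and -0.09, and Gnao1 -0.02 and 0.21. Itpr3, a calcium release channel used in many cell types, was lowest with -1.10 and -0.15, followed by the chloride channel gene Ano1 with -0.64 and -0.10. Ano2 (0.39 and 0.20) and Stoml3 (0.41 and 0.09) were highest. Of 22 genes of taste cell signalling, 17 were measured, with medians of -0.02 and 0.09, 3 below and 5 above 0 on both arrays. Gng13, a G protein subunit of taste cells, gave 0.30 and 0.38, Pkd2l1, a marker of sour-sensing cells, 0.52 and 0.28, and Trpm5, the cation channel of sweet, bitter and umami cells, 0.41 and -0.69. Scnn1a, a subunit of the epithelial sodium channel, gave -0.71 and -0.07.

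The 18 measured vomeronasal co-receptors and other sensory receptors had medians of 0.01 and 0.05, with 0 below and 5 above 0 on both arrays. H2-M10.1, one of the class I molecules found with V2R receptors, gave 1.27 and -0.46, and H2-M10.5 gave -0.82 and 0. Fpr-rs4, of the formyl peptide receptor family, gave -0.59 and 0.19, and Fpr2 gave 0.40 and 0.08. The 8 measured pheromone ligands and carriers had medians of -0.02 and 0.01. Among them Mup6, a major urinary protein gene, gave -0.24 and -1.25, Obp1a -0.03 and -0.21, Lcn3 0.55 and 0.05, and Obp2a 0 and 0.42. Values below 0 on both arrays were seen for 2 of the 8 and values above 0 for 1.

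For comparison, the 65 ribosomal protein genes had medians of -0.01 and -0.38 and SDs of 0.355 and 0.453, with 24 below and 3 above 0 on both arrays. They were led by Rpl4 (-0.67 and -1.32) and Rpl26 (-0.17 and -1.58) at the low end and by Rpl36 (0.31 and 0.02) and Rps13 (0.39 and -0.17) at the high end. The 905 olfactory receptors had medians of -0.02 and 0.08 and SDs of 0.287 and 0.230, close to the 0.290 and 0.229 of the vomeronasal and taste receptors. Their extremes by the mean of the arrays were Olfr560 (-1.48 and -0.64), Olfr420 (-1.54 and -0.34), Olfr761 (1.31 and 0.19) and Olfr881 (0.82 and 0.62). The embryonic stem cell marker Zfp42 gave -1.54 and -1.70, Klf4 -1.55 and -0.72, Nanog -0.95 and -1.04, Sox2 -0.58 and -0.51, Esrrb -0.29 and -0.21, and Pou5f1 0.10 and 0.50. Of these 6 markers, 5 lay below 0 on both arrays (17.0% of all entries) and 1 above (21.0%). At an unadjusted limma p under 0.05, 3 were lower (1.68% of all entries). Zfp42 and Klf4 lay further below 0 than any of the 150 receptor genes on both arrays and Nanog on array 2, while Sox2, Esrrb and Pou5f1 lay within the range of the receptor genes. The lowest values of the 905 olfactory receptors were -1.81 on array 1 and -1.03 on array 2. Klf4 lay within their range on both arrays, and Zfp42 and Nanog on array 1. None of these genes was called, and no test of one list against another was made.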

How the data were processed

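The series holds 2 two-colour arrays with swapped dyes, and the files used here are the authors' deposited table of 43790 spots. These deposited numbers were taken to be log10 ratios of Cy5 over Cy3 from Agilent Feature Extraction, which the submitters' processing notes name. The sources used here do not give its version, how background was corrected or how dyes were normalized. Channel intensities were not analysed here. Having 2 arrays limits the precision. Log2 ratios are the deposited values times 3.32, with the sign of array 2 turned to read transformant over disruptant. GEO's platform annotation gave the names of probes, and names and chromosomes were checked against a RefSeq table of GRCm38.p6. Unlisted spots below -1 (log10) on both arrays, 725 in number, were left out as probable control spots. Probes of a symbol were averaged, leaving 30110 entries. A two-sided test of the mean against 0 was made with limma 3.58.1 (lmFit, eBayes; R 4.3.3), with p-values adjusted over all entries by Benjamini-Hochberg and a threshold of 0.05. There were 1 residual and 0.861 prior degrees of freedom. The limma fit was run on simulated arrays with known changes. Their noise cancelled in the mean, so that run could not check the estimate. Naming, sign and averaging of probes were not part of it. The smallest two-sided p of a sign-flip test is 0.5 here. Such a p covers no more than how these pairs of clones differ.

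The members and lists were chosen with earlier results of these data known. Genes were named by rule: all Tas1r genes, in each other family the 3 lowest and 3 highest with the same sign on both arrays by the smaller value, the 5 largest opposite pairs, the 3 largest values of each array, the 3 genes whose probes differ most, and the 2 lowest and 2 highest of each other list. Alternatives were array 2 as deposited, values taken as log2, another centring, probes not averaged, spots at 0 removed, control spots kept, named probes alone, each array left out, a robust variance model, an unadjusted threshold, a 1.5-fold limit and pseudogenes left out.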

Additional observations from a re-analysis of the deposited data

How the results depend on the processing

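Of 86 values recomputed under the alternatives, 78 stayed near the value reported. Many of these could not change. Keeping control spots or using named probes alone does not touch the medians, SDs, zero shares and correlation of the receptor genes. Centring cannot change SDs or the correlation. Turning array 2 cannot change SDs, and reading as log2 cannot change the correlation. With array 2 not turned, the correlation of the arrays over receptor genes was 0.18 and the median on array 2 was -0.0502, both by construction. Read as log2, the SDs over receptor genes were 0.0873 and 0.0689, also by construction. At an unadjusted p under 0.05 limma gave 2 receptor genes, Vmn1r69 and Vmn1r218, in place of 0. At a 1.5-fold limit 1 receptor gene, Vmn1r69, was lower on both arrays in place of 0. With 1 array left out, a count on the other array stands in for a count on both. It ranged from 0 to 2 for receptor genes at least 2-fold lower (2 without replicate 2, which were Vmn1r69 and Vmn2r71) and from 0 to 1 for those at least 2-fold higher (1 without replicate 1, which was Vmn1r29). Another centring, probes not averaged, spots at 0 removed, control spots kept and named probes alone gave correlations from -0.21 to -0.18 and 0 calls each. Of these, only probes not averaged and spots at 0 removed could change the correlation. With 1 array left out no test, correlation or opposite count can be had. The ratio of an array is the difference within its pair of clones, so the test reported is itself the paired one, and no unpaired fit can be made from ratios. The depth of signal over background is unknown.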
